A study of Mus musculus with 8 samples.

Results

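Control-only intragenic H3K27ac regions are stretches inside protein-coding genes that carried a peak of histone H3 acetylated at lysine 27 in each of the control tumors and in no test tumor. They were selected on the peak lists themselves. The peaks of 4 tumors were joined where they overlapped or touched. A joined region was kept when it overlapped the body of a protein-coding gene and touched no window of 1 kb either side of a start site. The start site was the 5′ end of a protein-coding gene, and the starts of its other transcripts were not left out. A kept region also had a peak in both controls and none in either test tumor. This left 1692 of the 44944 intragenic regions away from start sites, or 3.76%, out of 89238 joined regions on the 19 autosomes. Over all joined regions, genic or not, 3055 were control-only, or 3.42%. The mirror selection, test-only intragenic regions, held 725 regions, or 1.61%, so control-only regions were 70.0% of those found in 1 group alone. That share was 56.7% when each tumor was cut to the same number of peaks, and 30.5% (2460 of 8057) without test 2, where presence in test 1 alone made a region test-only. Because presence and absence in these 4 lists chose the regions, their presence is a description, and no test was run on it.

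All 4 tumors came from mice of the BALB/c strain that carried the polyoma middle T oncogene (PyMT), which drives mammary carcinomas from the MMTV promoter, and lacked Rag1 (Rag1KO), so that they had no T or B cells of their own. When they were 4 weeks old all mice received an injection of CD4+ T cells, and the tumors were taken at terminal size. Control tumors had the genotype PyMT;Rag1KO. Test tumors had the genotype K14-TSLPtg;PyMT;Rag1KO, in which the keratin 14 promoter of basal epithelial cells drives the cytokine thymic stromal lymphopoietin (TSLP), and the sample titles call them cyst where the controls are called tumor. There were 2 tumors per group, each from a separate mouse. With 2 against 2, the tumors can be split in 3 ways and an exact permutation test cannot give a p below 0.333, so all comparisons are described by the values of each tumor. On the autosomes control 1 had 68404 peaks, control 2 had 66585, test 1 had 64438 and test 2 had 58328. Test 2 stood apart, with a peak in 49.8% of intragenic regions where the other tumors had one in 60.6 to 62.1%, and absence from test 2 was therefore the easier condition to meet. The lists hold positions and no signal, so the depth behind them is unknown, and a peak missing from a list is not shown to be an unacetylated site.

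H3K27ac is placed by the acetyltransferases p300 and CBP on nucleosomes beside active promoters and enhancers. Many enhancers lie in introns, where they may act on the gene that holds them, the host gene, or on another gene along the chromosome. The host is therefore named here as a position and not as a target. In a whole tumor, a region can lack a peak because cells of the type that uses it are fewer or because those cells acetylate it less, and peak lists of bulk tissue cannot tell these apart.

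The sequences that follow show what such regions look like at the hosts that the results turn on. They are the central 300 bases of the widest region in Hoxb3, Fmnl2, Dock10, Cmip and Etl4, among the hosts with the most control-only regions and leaving out the gene model Gm20388, which spans many genes, and in Fli1, Prrx1 and Ccr2, which hold the widest region among endothelial, fibroblast and myeloid marker genes. Letters are from the plus strand of mm10 (GRCm38), a C57BL/6J genome, and capitals mark a match to the AP-1 motif, spelled TGANTCA, which FOS and JUN proteins bind.
Hoxb3 chr11:96332708-96333007: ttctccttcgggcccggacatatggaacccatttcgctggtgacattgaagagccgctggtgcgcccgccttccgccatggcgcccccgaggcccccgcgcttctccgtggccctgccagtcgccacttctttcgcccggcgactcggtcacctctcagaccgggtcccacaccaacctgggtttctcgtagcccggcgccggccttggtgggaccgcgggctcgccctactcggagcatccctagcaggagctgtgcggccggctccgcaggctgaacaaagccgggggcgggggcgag
Fmnl2 chr2:52998296-52998595: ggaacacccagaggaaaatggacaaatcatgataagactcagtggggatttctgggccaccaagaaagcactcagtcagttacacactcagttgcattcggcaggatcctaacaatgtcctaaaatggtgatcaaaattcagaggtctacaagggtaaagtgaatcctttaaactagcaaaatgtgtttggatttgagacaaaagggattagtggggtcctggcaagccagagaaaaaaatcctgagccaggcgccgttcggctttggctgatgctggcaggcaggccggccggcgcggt
Dock10 chr1:80730581-80730880: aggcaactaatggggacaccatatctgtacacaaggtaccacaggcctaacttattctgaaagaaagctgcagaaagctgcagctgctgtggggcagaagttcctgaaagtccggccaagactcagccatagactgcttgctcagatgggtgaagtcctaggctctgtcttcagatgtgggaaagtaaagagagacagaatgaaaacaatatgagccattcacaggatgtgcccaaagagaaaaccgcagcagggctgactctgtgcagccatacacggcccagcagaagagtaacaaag
Cmip chr8:117328917-117329216: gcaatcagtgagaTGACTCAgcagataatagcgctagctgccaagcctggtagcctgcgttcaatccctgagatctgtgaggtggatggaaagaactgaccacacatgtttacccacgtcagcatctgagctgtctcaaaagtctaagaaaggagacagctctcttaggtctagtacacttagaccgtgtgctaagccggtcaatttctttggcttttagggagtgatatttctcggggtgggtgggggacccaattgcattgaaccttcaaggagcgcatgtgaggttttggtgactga
Etl4 chr2:20290867-20291166: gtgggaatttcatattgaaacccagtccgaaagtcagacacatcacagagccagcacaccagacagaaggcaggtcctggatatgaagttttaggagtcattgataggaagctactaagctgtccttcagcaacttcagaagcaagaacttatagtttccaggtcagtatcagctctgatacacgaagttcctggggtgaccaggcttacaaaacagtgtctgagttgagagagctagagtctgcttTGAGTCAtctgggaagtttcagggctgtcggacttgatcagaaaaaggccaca
Fli1 chr9:32509589-32509888: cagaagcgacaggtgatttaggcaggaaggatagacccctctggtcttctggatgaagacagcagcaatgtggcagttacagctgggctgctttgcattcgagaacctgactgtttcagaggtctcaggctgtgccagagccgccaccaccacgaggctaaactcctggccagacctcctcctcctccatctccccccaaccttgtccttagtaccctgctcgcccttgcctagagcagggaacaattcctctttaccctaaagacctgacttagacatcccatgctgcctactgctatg
Prrx1 chr1:163277786-163278085: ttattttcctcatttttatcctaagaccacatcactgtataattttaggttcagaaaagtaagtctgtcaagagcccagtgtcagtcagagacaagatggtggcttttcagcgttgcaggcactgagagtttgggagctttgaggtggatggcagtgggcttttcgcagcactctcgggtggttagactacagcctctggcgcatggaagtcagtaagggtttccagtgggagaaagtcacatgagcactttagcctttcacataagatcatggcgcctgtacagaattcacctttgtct
Ccr2 chr9:124104371-124104670: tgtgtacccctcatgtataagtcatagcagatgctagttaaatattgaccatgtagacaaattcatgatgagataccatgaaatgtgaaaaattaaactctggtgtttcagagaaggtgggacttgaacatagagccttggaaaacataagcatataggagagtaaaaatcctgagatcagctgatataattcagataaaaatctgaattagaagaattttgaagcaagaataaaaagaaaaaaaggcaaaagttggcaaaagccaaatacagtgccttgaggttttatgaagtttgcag
The Hoxb3 window is rich in CpG, with 69.7% G and C and 32 CpG, where the 1692 control-only regions averaged 47.4% ± 6.02 (SD over regions) and 3.86 ± 3.01 CpG. The other windows held from 0 CpG in Ccr2, which had 34.0% G and C, to 8 in Fmnl2. An AP-1 match stood in the Cmip and Etl4 windows and in none of the other 6 printed.

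Most of the regions were small. Joined regions had a median width of 407 bp (range 159 to 2987), against 470 bp over all intragenic regions and 1693 bp for the 13848 intragenic regions with a peak in all 4 tumors. Peaks covered a median of 265.5 bp of them in control 1 and 268 bp in control 2. The narrowest peak that the lists allow was 155 bp in control 1 and 158 bp in control 2, and 9.16% and 7.74% of the regions were at that floor, against 4.51% and 5.10% of all peaks of those tumors. The control peaks shared at least 1 base in 1691 of the 1692 regions, with a median of 180 shared bases and a median ratio of shared to joined bases of 0.472. Their extents were only loosely related. Covered length differed by more than 2-fold between the controls in 489 regions (28.9%), and the Spearman rank correlation over the 1692 regions was 0.169, a description across regions of the same 2 libraries. In 114 regions both controls had at least 500 bp, and in 12 both had at least 1 kb.

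**Figure D1:**
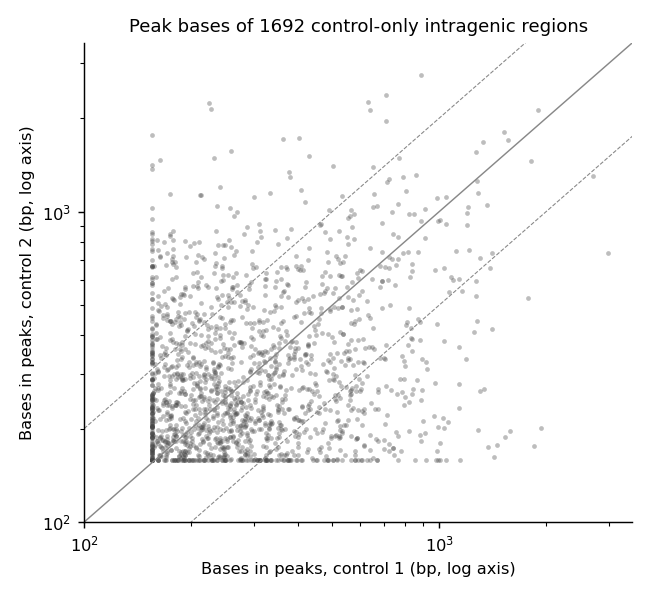
Bases in peaks in control 1 (x axis, bp, log scale) against control 2 (y axis, bp, log scale), 1 point per control-only intragenic region; the solid line is equality and the dashed lines are 2-fold. Points crowd at the narrowest widths of 155 and 158 bp, and 28.9% lie outside the dashed lines.

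The boundary of the selection was narrow in base pairs. Of the 19576 intragenic regions with a peak in both controls, 13848 had peaks in both test tumors, 3330 in test 1 alone and 706 in test 2 alone. Just inside the boundary, the closest control-only region lay 3 bp from a test peak, and just outside it the least test-covered region had 161 bp of test peak. The median distance to the nearest peak was 2.46 kb in test 1 and 5.21 kb in test 2. A peak of either test tumor lay within 1 kb of 676 regions (40.0%), while 387 regions (22.9%) had none within 10 kb. Of the regions, 306 (18.1%) lay within 5 kb of another control-only intragenic region.

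The acetylation around the regions followed the tumors in a graded way. Within 10 kb on either side, leaving out the region itself, peaks covered 12.3% and 11.97% of bases in control 1 and control 2, and 10.1% and 7.30% in test 1 and test 2. The mean of the test tumors was thus lower by 3.45 percentage points, with an SD of 1.64 over the 4 test and control pairs, and both controls exceeded both test tumors in 625 regions (36.9%), against 15.9% of all intragenic regions. Both test tumors exceeded both controls in 3.19%, against 11.5%. Without test 2 the difference was -1.63, and without test 1 it was -5.67. Around test-only regions coverage was 11.9%, 11.03%, 13.6% and 13.7% in the same order of tumors, and both controls were higher in 24 of 725 (3.31%) and both test tumors in 27.6%, so the surroundings of each selection leaned to its own group. Around regions with a peak in all 4 tumors it was 14.1%, 13.2%, 14.6% and 11.9%. The last set shows test 2 as the lowest tumor also where the rule did not ask for it, whereas test 1 was lower than both controls around control-only regions and higher than both around the shared ones. The neighbourhood was not part of the rule, but it shares lists with the regions and can hold other control-only regions.

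**Figure D2:**
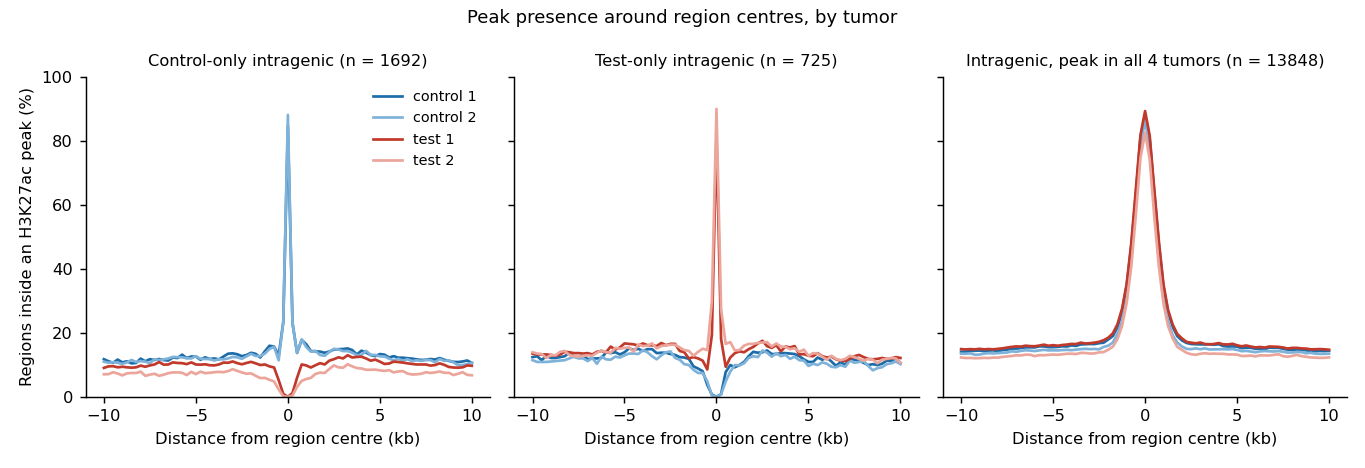
Percent of regions that lie inside a peak (y axis) at each distance from the region centre (x axis, kb), 1 line per tumor, for control-only, test-only and shared intragenic regions. Around the 1692 control-only regions the lines of both controls run above those of test 1 and test 2 out to 10 kb, and around the 725 test-only regions the lines of the test tumors run mostly above those of the controls, though control 1 meets or passes a test tumor in places.

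In position the regions resembled other intragenic regions. The centre fell in an intron in 90.8% of them, in a coding exon in 3.13% and in an untranslated part of an exon in 3.37%, against 89.1%, 3.45% and 4.24% over all intragenic regions. The centre lay a median of 29.7 kb from the nearest start site, against 28.6 kb. Per chromosome the share of intragenic regions that were control-only ran from 3.12% on chromosome 19 to 4.91% on chromosome 6.

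The regions fell in 1244 host genes, 13.8% of the 9046 genes that hold any intragenic region, and test-only regions fell in 623, or 6.89%. A single control-only region was found in 933 hosts, at least 2 in 311, at least 3 in 101 and at least 4 in 46. Long genes with many regions were hosts more often: the share of hosts was 4.55% among genes with 1 or 2 regions and 61.3% among those with at least 21. Per region the share was flat, at 3.40% and 3.77% in the same bins, so the number of hosts in a gene group is given here beside the share of its regions. There were 122 genes that hosted both kinds, 9.81% of the hosts of control-only and 19.6% of the hosts of test-only regions.

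At the promoters of the hosts there was little difference. A peak within 1 kb of the start site was present in all 4 tumors in 843 of the 1244 hosts (67.8%), the same share as the 67.8% over all genes with an intragenic region. In 17 hosts (1.37%) the promoter had a peak in both controls and no test tumor, against 67 of all 9046 genes (0.741%). In the gene body, leaving out control-only and test-only regions and start site windows, both controls were above both test tumors in 328 of the 1184 hosts with enough sequence left (27.7%). The share over all genes was 12.6%, but hosts are longer (median 83.1 kb against 39.2 kb) and the comparison was not matched for length. Both test tumors were above both controls in 69 hosts (5.83%), against 13.5% over all genes. The hosts of test-only regions were the mirror of this, with both test tumors higher in 25.3% and both controls in 6.04%. Mean coverage of host bodies was 9.07% and 8.78% in the controls, 8.53% in test 1 and 6.18% in test 2.

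Hoxb3, a homeobox transcription factor of the HoxB cluster on chromosome 11, held 9 control-only regions among its 14 intragenic ones. No host held more, and Fmnl2 held as many. Of the other 5, control 1 had a peak in 1, control 2 in 5, test 1 in 1 and test 2 in 0, so that control 1 and test 1 were equal there. The widest, chr11:96331799-96333916, is an intronic region with 1894 bp in peaks in control 1 and 2118 bp in control 2. Another, chr11:96337997-96339550, had 1273 and 1554 bp. Of the 9, 7 were intronic and 2 had their centre in a coding exon. The nearest peak of test 1 was between 871 bp and 9840 bp away, and the nearest peak of test 2 between 248549 bp and 269148 bp. The promoter of Hoxb3 had a peak in both controls and in neither test tumor. Body coverage outside the selected regions was 13.1% and 14.5% in the controls, 4.53% in test 1 and 0% in test 2.

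The HoxB cluster as a whole had few test peaks. Across its 10 genes (chr11:96194316-96368256) peaks covered 13.98% and 13.4% of bases in the controls, 1.33% in test 1 and 0% in test 2, and 14 of the 32 joined regions, promoter and intergenic ones included, were control-only. Test 1 had a peak in 5 of the 32 and test 2 in 0. These percentages include the selected regions, and with control-only regions left out coverage of the cluster was 8.03% and 8.13% in the controls, 1.43% in test 1 and 0% in test 2. The HoxA cluster on chromosome 6 was different, with 4.04% and 13.1% in control 1 and control 2 and 3.87% and 0.153% in test 1 and test 2, so that control 1 and test 1 were alike there and 2 of its regions were control-only and intragenic. HoxC and HoxD had at most 0.667% in any tumor. Hox genes give cells their position along the body axis and stay active in many adult stromal and epithelial cells.

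**Figure D3:**
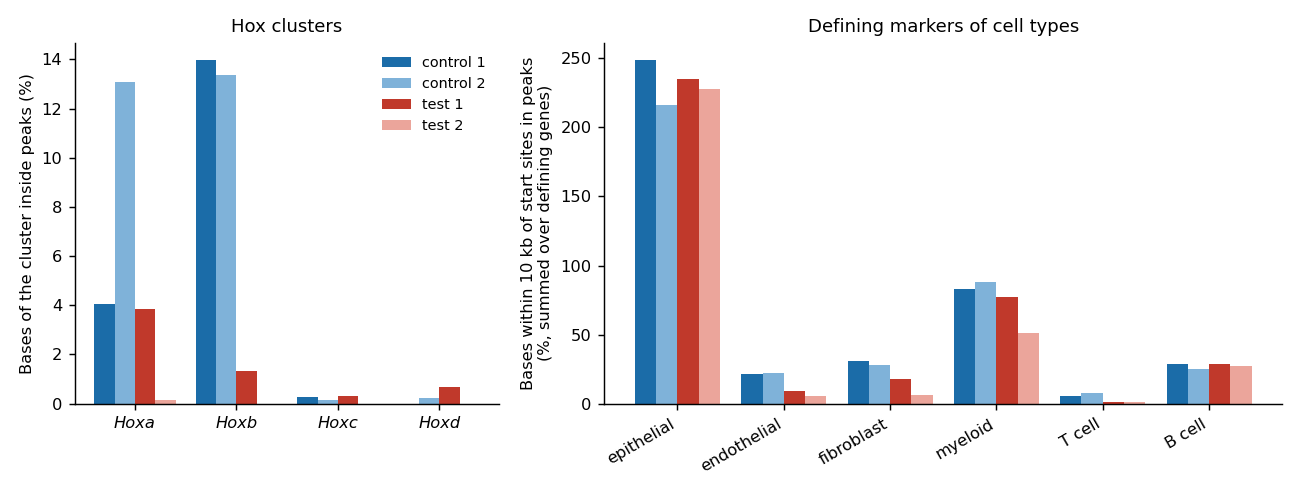
Left, percent of bases inside peaks (y axis) over the 4 Hox clusters, 1 bar per tumor; HoxB runs from 13.98% in control 1 to 0% in test 2. Right, percent of bases within 10 kb of the start site inside peaks, summed over the defining genes of 6 cell types, 1 bar per tumor. Endothelial, fibroblast, myeloid and T cell sums are lower in both test tumors than in both controls, and the epithelial and B cell sums overlap between the groups. Both panels include the control-only regions.

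The other hosts with the most control-only regions included regulators of the actin cytoskeleton and adhesion. Fmnl2, a formin that builds actin filaments at the leading edge of migrating cells, held 9 control-only regions among 43, with peaks in 28, 24, 23 and 9 of the other 34, in the order control 1, control 2, test 1, test 2. That order is used from here on, and counts of peaks leave out the control-only regions, in which the rule fixed them. Its 9 regions were intronic and spread from 2.57 to 213.3 kb from the start site, and the widest in control 2 had 617 bp there and 159 bp in control 1. Test 2 had a peak 159 bp from that region. Fmnl2 kept a promoter peak in all 4 tumors, and body coverage was 7.44% and 6.28% in the controls, 4.92% in test 1 and 2.37% in test 2.

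Dock10, an exchange factor that activates the GTPases Cdc42 and Rac1, held 7 among 30. Peaks stood in 9, 20, 5 and 3 of its other 23 regions, and body coverage was 4.56%, 5.40%, 0.989% and 0.604%, groups that do not overlap. Its widest region, chr1:80730031-80731430, had 503 bp in control 1 and 1400 bp in control 2, 9943 bp from the nearest peak of test 1 and 64856 bp from that of test 2. Dock9, a Cdc42 exchange factor, had 5 of 41, with peaks in 25, 28, 19 and 17 of the other 36. Srgap3, a GTPase activating protein for Rac1, had 5 of 31, with peaks in 15, 14, 16 and 8 of the other 26, so that test 1 was not lower than the controls.

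Antxr1, a receptor for collagen and for anthrax toxin found on tumor vessels and stroma, held 6 of 34, and control 1 was closer to test 1 than to control 2 there, with peaks in 10, 27, 14 and 2 of the other 28 regions. Tspan5, a tetraspanin that helps ADAM10 reach the cell surface, held 5 of 29. One of them, chr3:138866709-138869459, was 2751 bp in control 2 and 890 bp in control 1, and body coverage of Tspan5 was 15.9%, 20.7%, 11.1% and 4.45%. Igfbp7, a secreted protein of vessels and matrix, held 5 of 24, with peaks in 13, 12, 7 and 3 of the other 19, while its body coverage overlapped between the groups, at 24.7%, 20.1%, 20.2% and 10.4%. Itpr1, a calcium channel of the endoplasmic reticulum, held 5 of 46 and differed less, with peaks in 28, 27, 23 and 20 of the other 41. Cmip, an adaptor protein, held 6 of 41, with peaks in 23, 24, 16 and 11 of the other 35. Etl4 held 6 of 47, and its body coverage overlapped between the groups, at 3.25%, 2.78%, 3.04% and 2.56%. The gene model Gm20388 held 7 of 423, but it is a transcript model that spans 4435 kb and many other genes, so its regions belong to those genes as well.

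**Figure D4:**
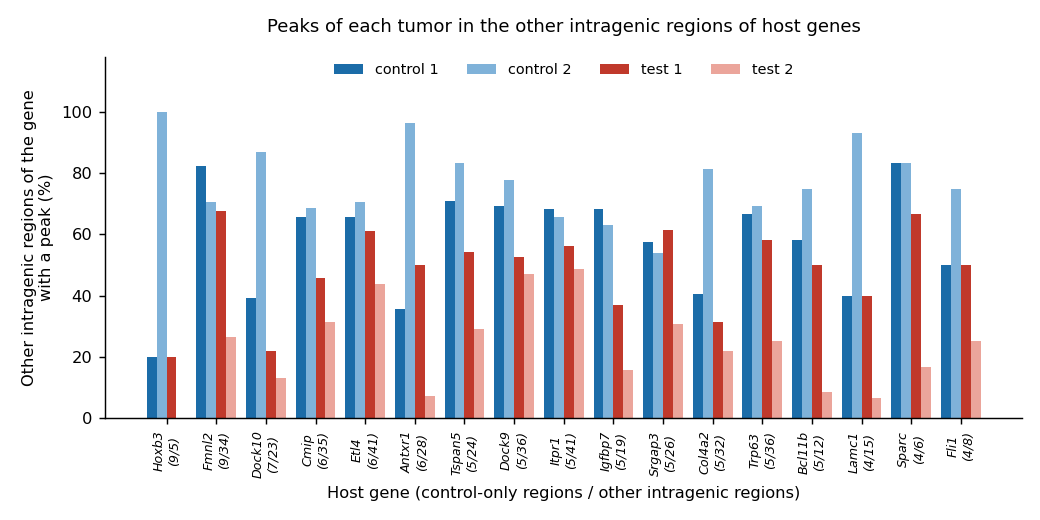
Percent of a gene's intragenic regions, other than its control-only ones, that have a peak in each tumor (y axis), for the hosts with the most control-only regions except Gm20388, and for 6 hosts of the gene lists; numbers in parentheses are control-only over other intragenic regions. Test 2 is the lowest bar in each gene shown, while test 1 reaches or passes control 1 in Hoxb3, Srgap3, Antxr1, Lamc1 and Fli1.

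Genes of the extracellular matrix had a share above that of all intragenic regions. Of 300 intragenic regions in basement membrane and collagen genes 28 were control-only (9.33%, 95% Wilson interval 6.54 to 13.2, which covers counting error only), in 13 of 36 genes, and 3 were test-only (1.00%). Col4a2, a chain of the collagen IV network of basement membranes, had 5 of 37, with peaks in 13, 26, 10 and 7 of the other 32 and a body coverage of 8.80%, 15.3%, 5.50% and 2.39%. Its partner Col4a1 had 3 of 24. Lamc1, the laminin chain shared by most laminins, had 4 of 19, with peaks in 6, 14, 6 and 1 of the other 15, where control 1 and test 1 were equal. Sparc, a collagen-binding matrix protein, had 4 of 10, with peaks in 5, 5, 4 and 1 of the other 6 and a body coverage of 21.5%, 23.5%, 17.1% and 5.75%. The share of this list was 2.48 times that of all intragenic regions, and it stayed between 1.62 and 3.95 times under all alternatives.

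Genes that act in epithelial-mesenchymal transition (EMT) partly repeat these. EMT effectors had 33 of 428 (7.71%), in 18 of 62 genes, and 5 test-only regions (1.17%), 2.05 times the share of all intragenic regions. Besides Lamc1 and Sparc, the leading hosts were Prrx1, a homeobox factor of mesenchyme, with 3 of 13, and Cd44, the hyaluronan receptor, with 3 of 22. In Prrx1 the widest region, chr1:163277394-163278478, had 1044 bp in control 1 and 910 bp in control 2, and body coverage was 17.0%, 17.4%, 9.44% and 5.45%. EMT transcription factors had 7 of 134 (5.22%, interval 2.55 to 10.4), all in Prrx1, Runx1, Runx2 and Tcf4. Runx1 had 2 of 41, with peaks in 27, 19, 29 and 10 of the other 39, so that only test 2 was lower than both controls. With each tumor cut to its 58328 widest peaks, 10 of 60 EMT effector genes were hosts (16.7%), and 18 of 347 of their regions were control-only, 1.76 times the share of all intragenic regions under the same cut.

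Adhesion and guidance genes had smaller shares. Integrin and focal adhesion genes had 28 of 456 (6.14%), led by Tns3 and Lpp with 4 each, of 47 and 58 regions, and by Itgb2, the leukocyte integrin chain, with 3 of 12. Without control 1 the share of this list was 0.903 times that of all intragenic regions, against 1.63 times with all tumors, and without test 1 it was 1.08 times. In Lpp the counts of peaks overlapped between the groups, with peaks in 37, 32, 27 and 35 of the other 54, of which 1 was test-only. Its body coverage did not overlap, at 6.998%, 6.11%, 5.62% and 5.80%. Semaphorins, plexins and neuropilins had 11 of 166 (6.63%, interval 3.74 to 11.5, which includes the share of all intragenic regions), in 9 of 24 genes, with 2 each in Sema6a and Nrp2. In both, body coverage overlapped between the groups, and in Nrp2, a semaphorin and VEGF-C coreceptor, test 2 was the highest tumor, at 1.36%, 2.21%, 1.68% and 4.48%.

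Luminal and secretory mammary genes had the opposite tilt. Control-only regions were 5 of 340 (1.47%, interval 0.630 to 3.40) and test-only ones 9 (2.65%), against 3.76% and 1.61% of all intragenic regions. No interval was computed for the test-only share, which rests on 9 regions. The control-only share was 0.391 times that of all intragenic regions, and 0.962 times without test 1, where 38 of 322 regions qualified. The 5 lay in Bcl11a with 3 of 11, in Trps1 with 1 of 56 and in Nfib with 1 of 110, and Bcl11a also held 2 test-only regions. Mean body coverage of the 40 genes was 30.2%, 26.4%, 33.6% and 26.5%, groups that overlap. TGF-beta and BMP signalling genes had 8 of 354 (2.26%), led by Smad3 with 2 of 38. Myoepithelial and basal genes had 6 of 176 (3.41%), 5 of them in Trp63, the master factor of basal epithelium, which had peaks in 24, 25, 21 and 9 of its other 36 regions. Of genes with no tie to the tissue question, cell cycle genes had 0 of 18 (interval 0 to 17.6). Oxidative phosphorylation genes had 3 of 26 (11.5%, interval 4.00 to 29.0), a share above that of the basement membrane and collagen genes. It rests on 3 regions and ran from 0 to 5.02 times that of all intragenic regions under the alternatives.

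Marker genes of vessels and stroma were among the hosts. Endothelial markers had 11 of 111 control-only regions (9.91%, interval 5.62 to 16.9) and 0 test-only. Fli1, an ETS factor of endothelium and blood, had 4 of 12, with peaks in 4, 6, 4 and 2 of the other 8 and a body coverage of 4.57%, 3.13%, 2.96% and 0.546%. The stem and endothelial surface protein Cd34 had 2 of 3, with a peak of control 1 alone in the other 1, and the nearest test peak was 33688 bp away. Cdh5, Eng, Ets1 and Mmrn2 held the others. Fibroblast and pericyte markers had 5 of 55 (9.09%) in Prrx1, Col3a1 and Col1a2. T cell markers had 6 of 66 (9.09%), 5 of them in Bcl11b, where peaks stood in 7, 9, 6 and 1 of the other 12 regions. T cell markers also had 2 test-only regions (3.03%), while fibroblast and myeloid markers had 0. Myeloid markers had 4 of 86 (4.65%, interval 1.82 to 11.4, which includes the share of all intragenic regions), among them 1 each in Ccr2, Spi1 and Cx3cr1. With each tumor cut to its 58328 widest peaks T cell markers had 1 of 54 and myeloid markers 0 of 71, while endothelial markers had 7 of 84 and fibroblast markers 5 of 47.

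**Figure D5:**
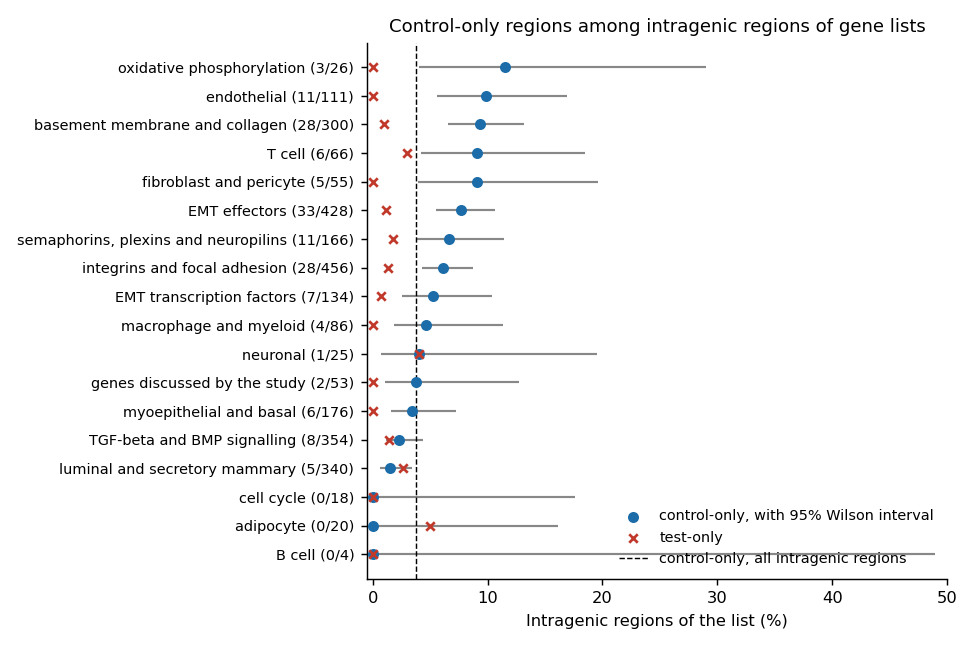
Percent of the intragenic regions of the gene lists shown (x axis) that were control-only (points with 95% Wilson intervals) or test-only (crosses); the dashed line is the 3.76% over all intragenic regions, and numbers in parentheses are control-only over all regions of the list. Basement membrane and collagen genes stand at 9.33% and luminal and secretory mammary genes at 1.47%.

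Acetylation near marker genes was compared in windows that still hold the control-only regions lying in them. Where such a region lies in a window, as in Col1a2 and Cd34, the rule fixed part of the difference. Values without these regions were not computed. Acetylation within 10 kb of the start sites of 5 defining endothelial genes, summed as percent of bases, was 21.4 and 21.9 in the controls and 8.83 and 5.53 in the test tumors. For fibroblasts it was 30.9 and 27.9 against 18.2 and 6.46, and for myeloid cells 83.2 and 88.4 against 77.5 and 51.3, with Adgre1 at 0 in all tumors. T cell genes were at or near 0: the sums were 5.30 and 7.40 against 1.27 and 1.01, with Cd3g, Cd4, Lck and Cd2 at 0 in both test tumors, and Cd3e the other way, at 0 and 0.790 against 1.27 and 1.01. The epithelial sum, over genes such as Epcam, Krt8 and Krt18, was 249 and 216 against 235 and 228 and overlapped between the groups, so epithelial markers of a breast tumor were present in all 4. Over the whole lists, 20 of 30 endothelial markers had a lower mean in the test tumors, 10 had both controls above both test tumors and none had the reverse (0 of 30), against 8.09% and 14.4% of all protein-coding genes, with sums of 149 and 113 against 74.1 and 40.5 and with Vwf, Cldn5 and Erg among 8 genes at 0 in all tumors. Fibroblast and pericyte markers had 5 of 26 with both controls higher and 1 with the reverse, with sums of 135 and 119 against 106 and 68.1 and 11 genes at 0. Myeloid markers had 15 of 37 and 3, with sums of 630 and 539 against 504 and 344 and 4 at 0. T cell markers had 4 of 22 and 2, with sums of 94.8 and 98.4 against 83.8 and 65.1 and 7 at 0. B cell markers had 1 of 10 and 0, with sums of 38.8 and 35.4 against 37.2 and 30.0, and the defining genes Ms4a1 and Pax5 were at 0. Adipocyte markers had 1 of 12 and 1, with 0 of 20 control-only regions, and neuronal markers had 1 of 13 and 1, with 1 control-only region of 25, in Gad1. The part of cell make-up, which peak lists do not measure, in the matrix, EMT, Hox and cytoskeletal results was not tested.

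The widest regions were in genes of mixed kinds. A region of 2987 bp in Hivep3, a zinc finger factor, was covered whole in control 1 and for 735 bp in control 2, yet test 1 had a peak 21 bp away and test 2 one 99 bp away. Dsc3, a desmosomal cadherin of basal and stratified epithelium, held the next widest, 2807 bp, as its only intragenic region, with 2717 and 1303 bp in the controls and the nearest test peak 71474 bp away. The widest region of Hunk, a kinase of mammary epithelium, had 709 and 2383 bp. Trpm3, a cation channel, held 2 wide regions, one 34305 bp and one 2254 bp from the nearest test peak. The region of Atp6v0e2, a subunit of the proton pump, had its centre just outside the gene body and covered 225 bp in control 1 and 2243 bp in control 2. The widest region of Mtmr7, a lipid phosphatase, covered 638 and 2119 bp.

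Among genes whose expression the study took up, 1 was a host. Of the 12 that hold an intragenic region only Fgfr1, a fibroblast growth factor receptor, held control-only regions, 2 of 16, which brings the list to 2 of 53 (3.77%), at the background. Peaks stood in 3, 13, 4 and 3 of the other 14 Fgfr1 regions, so control 1 was close to the test tumors. Body coverage of Fgfr1 was 23.1%, 45.1%, 21.9% and 19.1%. Cdh1, the epithelial cadherin, Gata3, the luminal factor, and Krt14 held none. Csn2, Muc1, Vim, Trp53 and Tslp had no intragenic region away from a start site.

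In sequence the regions were close to other intragenic regions. Their mean of 3.86 CpG compares with 4.13 over all intragenic regions and 4.97 in the regions of all 4 tumors. The AP-1 motif matched the central 300 bases of 140 of 1692 regions (8.27%, Wilson interval 7.05 to 9.68), against 10.4% of all intragenic regions, 12.6% of those of all 4 tumors and 6.62% of test-only regions (interval 5.03 to 8.67). Over all intragenic regions, narrow ones had fewer matches. Among regions of 500 to 1000 bp the share was 10.1% for control-only and 11.1% for all intragenic regions, and at 1000 bp or more it was 12.5% and 12.9%. From 300 to 500 bp, where 39.9% of the control-only regions fall, it was 6.82% and 8.88%, and below 300 bp it was 7.35% and 8.66%. An NFI site, spelled TTGGCA, was in 20.9% (interval 19.0 to 22.9) against 19.3%, and the ETS form bound by PU.1, spelled GAGGAAGT, was in 2.25% against 2.80%. The E-box bound by ZEB and SNAI repressors of EMT, spelled CACCTG, was in 19.5% (interval 17.7 to 21.5) against 21.8%, and the E-box of TWIST, spelled CAGATG, in 22.5% against 21.4%. RUNX sites, spelled TGTGGTT, were in 6.56% against 7.47%. Both strands were searched for each spelling, none of the spellings printed here contains another, and a match says only that the letters are present.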

How the data were processed

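H3K27ac ChIP-seq of 2 control and 2 test breast tumors of mice was used, with groups taken from the genotype in the labels and tumors numbered within each group as names only. The authors used BWA to align reads to mm10 and MACS2, per tumor and against its own input, for the peaks. The deposited lists give the start and end of each interval in bp, with no score, signal or p-value. Their names call them cleaned and merged, a step not described in the sources used here, and the smallest gap between intervals was 201 bp. The 4 input libraries were not analysed here. Depth is unknown, and deeper sequencing can give more and wider peaks.

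Peaks were joined into regions and placed on GENCODE M21 genes (20807 autosomal protein-coding genes) with Python 3.11.15, NumPy 2.4.6, pandas 2.3.3 and SciPy 1.17.1. Presence was an overlap of 1 bp, and the start site was the 5′ end of the gene. Gene body coverage left out start site windows and control-only and test-only regions, and needed 1000 bp to remain. Functions were tested on simulated data. The 16 motifs were searched on both strands.

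The regions, the 19 gene lists and the motifs were chosen with earlier results of these data known. Genes are named when they were among the 12 hosts with the most regions or hosted 1 of the 8 widest. Also named are up to 3 hosts per list, genes the study discussed and defining markers. The others named (Cd44, Col4a1, Tcf4, Cdh5, Mmrn2, Vwf, Cldn5 and Erg, and the other Hox clusters) were chosen after their values were seen. Results of 1 list and of some genes are not reported here. No test was run. The alternatives changed peak width, peak number, joining distance, start site windows and the tumors used.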

Additional observations from a re-analysis of the deposited data

How the results depend on the processing

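Moving or widening the start site windows kept the shares and the flank difference within their intervals or spread. The number of regions, which has no interval, fell to 1594 with windows of 2.5 kb. It was 1617 with start sites of genes of any type and 1529 with those of all transcripts, so some regions lie near the start of another transcript. Leaving out the gene models Gm20388 and Gm37240 kept the counts of regions and hosts and the share of regions close. That alternative was chosen after seeing the data and run on those 3 alone. Width mattered more. With only peaks of at least 500 bp there were 668 control-only intragenic regions in 564 hosts, 3.21% of intragenic regions and 61.5% of those found in 1 group alone (70.0% as reported), 56.6% of hosts had a promoter peak in all tumors and AP-1 matched 12.3%. With at least 1 kb these were 387, 347, 3.001%, 57.6%, 40.6% and 10.9%. With peaks within 1 kb joined there were 1018 regions, the flank difference was -1.77, the promoter share 64.4% and the AP-1 share 13.95%. With no test peak within 1 kb there were 1016 regions (2.26%) in 812 hosts, and the promoter share was 64.5%. With the same number of peaks per tumor the share was 2.94% and the share of those in 1 group 56.7%. AP-1 matched 14.1% of whole regions. Leaving out each tumor in turn gave, by construction, wider selections: 2460 to 7289 regions, 1710 to 3623 hosts, 5.79 to 17.4% of intragenic regions, 30.5 to 82.1% of those in 1 group, a flank difference of -5.67 to -1.63, a promoter share of 69.5 to 71.9% and an AP-1 share of 8.53 to 9.74%. Of the 19 gene lists, 13 had a host share above that of all genes, and 12 to 15 did so under the alternatives. Relative to all intragenic regions, and over 12 alternatives applied to this ratio after seeing the data, the control-only share ran from 1.43 to 2.81 times for EMT effectors, 1.28 to 2.08 for semaphorins, plexins and neuropilins, 1.45 to 5.20 for endothelial and 1.30 to 7.69 for fibroblast markers, whereas that of TGF-beta genes (0.539 to 1.23), myeloid (0 to 3.51) and T cell markers (0.629 to 6.66) crossed 1. Without read counts, neither depth nor peak height could be set against any of these values.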
